A study of Mus musculus with 8 samples.

Results

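The sites bound by tyrosine-phosphorylated STAT3α and by tyrosine-phosphorylated STAT3β were compared at 30 min of oncostatin M (OSM) in mouse embryonic fibroblasts. The members were the peaks of the STAT3α 30 min list (3725 peaks) and of the STAT3β 30 min list (3891 peaks), as positions on mm9 counted from 1. A peak was common when chromosome, start and end were identical in both lists. This gave 5338 distinct sites, of 5343 with an exact position in the 6 ChIP lists of the study. They divided into 2278 common sites, 1447 sites of the STAT3α list alone (STAT3α-only) and 1613 sites of the STAT3β list alone (STAT3β-only).

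All fibroblasts were STAT3-/- and re-expressed either STAT3α or STAT3β, whose expression was switched on by 4-hydroxytamoxifen (1 nM, 48 h or longer). After 16 h without serum they received 10 ng/mL human recombinant OSM for 0, 30 or 180 min, and chromatin was precipitated with an antibody against phosphorylated STAT3. The study had 8 samples, 6 of them ChIP samples with 1 peak list each and 2 of them input DNA, which entered no comparison here. The labels name 1 line per spliceform and do not say whether it was 1 clone, so line and spliceform cannot be told apart. Duplicates were merged into 1 list per sample, which leaves no replicate error and allows no test across cultures. The lists hold no read number, height or transcript, so library depth is unknown and the cell type could not be checked against markers. Intervals are 95% exact (Clopper-Pearson) binomial intervals. They cover counting over sites only and treat sites as independent.

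OSM is a cytokine of the interleukin-6 family. Its receptors contain gp130 (Il6st), joined by Osmr or Lifr, and activate JAK kinases, which phosphorylate STAT3 on a tyrosine. Phosphorylated STAT3 forms dimers that enter the nucleus and bind DNA near genes such as Socs3, an inhibitor of the same pathway. STAT3α is the full-length protein. STAT3β comes from alternative splicing and keeps the DNA-binding and dimerisation domains, but a short tail of its own replaces the C-terminal transactivation domain of STAT3α.

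Which known target genes lie at common or single-list sites was not resolved to genes. The gene table used here belongs to GRCm38.p6 and not to mm9, so the chromosome is the finest level at which genes and sites could be set side by side. All 131 genes of a list of OSM and STAT3 targets were found in that table. Chromosome 11 carries 12 of them, more than any other chromosome. They include Socs3, Stat3, Stat5a, Stat5b and the cytokine genes Osm and Lif. Chromosome 11 held 427 sites, of which 194 were common, 108 STAT3α-only and 125 STAT3β-only. Chromosome 5, with 11 of the genes, held 358 sites, 161 of them common. Chromosome 10, which carries Socs2 and Sbno2 among its 10 listed genes, held 268 sites, 112 of them common. The common shares on chromosomes 11, 5 and 10 were 45.4%, 45% and 41.8%, near the 42.7% of all sites. Per 100 protein-coding genes they held 26.5, 28.2 and 26.8 sites, against 24.7 over the genome. These counts do not tell which sites lie at target genes. Sites are therefore named by position in what follows, and no sequence is shown, because no mm9 genome was used here.

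Common sites made up a similar share of the sites on nearly every chromosome, while the single-list sites did not divide evenly between the spliceforms. Over the genome 42.7% of sites were common, 27.1% STAT3α-only and 30.2% STAT3β-only. The common share ran from 37.1% on chromosome 19 (interval 29.6 to 45.1%, 59 of 159 sites) to 49.2% on chromosome 8 (42.7 to 55.6%, 120 of 244 sites). Of the 20 chromosomes, chromosome 8 alone had an interval whose lower end equalled the genome-wide share at the digits given. The intervals of all others included that share. The density of sites varied more between chromosomes. Per 100 protein-coding genes of the chromosome, gene numbers taken from GRCm38.p6, there were 24.7 sites over the genome. The value was 45.6 on chromosome 15 and 36.4 on chromosome 3. It was 9.66 on chromosome 7 and 11.2 on the X chromosome. Common sites alone gave 19.7 on chromosome 15 and 3.74 on chromosome 7. They are part of the total at a similar share throughout, so this is not a separate result. Chromosome 7 had the most protein-coding genes (2030), and its 196 sites were more than those on chromosomes 12, 14, 18, 19 or X.

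**Figure D1:**
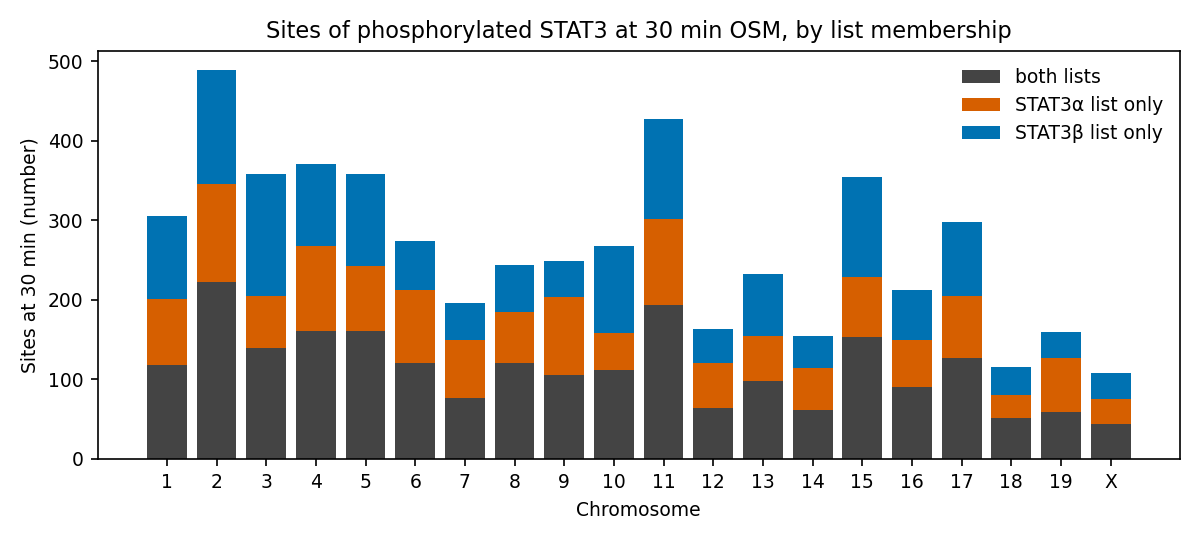
Number of 30 min sites per chromosome (y axis) on each mouse chromosome with sites (x axis), stacked by list membership. Chromosome 2 carried the most sites (489) and the X chromosome the fewest (108), and the STAT3β-only part is larger than the STAT3α-only part on chromosomes 3 and 10 and smaller on chromosomes 9 and 19.

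The sites were next grouped by distance, to show which stretches of the genome held several of them. Neighbouring sites whose midpoints lay within 10 kb were joined to a region. Of the 5338 sites, 1230 (23.0%) had another site within that distance. They formed 560 regions of at least 2 sites, and the other 4108 sites stood alone. Of the 560 regions, 468 (83.6%) held a peak of each list. This is near the background: at the genome-wide class shares 83.5% of pairs of sites would do so, and 82.2% of neighbouring sites 200 to 1000 kb apart did. Common sites alone made up 110 of the regions. Common sites occurred with STAT3α-only sites in 129 regions, with STAT3β-only sites in 133 and with both in 23. In 73 regions (13.0%) STAT3α-only and STAT3β-only sites lay together without a common site, so that both lists had peaks in the region but no listed position in common. This count is not above the background. Of the 1491 pairs of neighbouring sites 200 to 1000 kb apart, 259 joined a STAT3α-only with a STAT3β-only site, a larger share. Another 46 regions held STAT3α-only sites alone and 46 held STAT3β-only sites alone. Regions of at least 3 sites that were all of the same class were few, beside 82 regions of 3 or 4 sites and 6 of 5 or 6. There were 8 of common sites, 1 of STAT3β-only sites (57098641 to 57109465 on chromosome 3) and none of STAT3α-only sites. The numbers that the class shares alone would give were not computed, so no difference between the classes is read from these counts.

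Regions of 5 or 6 sites within this distance numbered 6, and each mixed common with single-list sites. The region at 125748756 to 125767102 on chromosome 2 held 6 sites, all in the STAT3β list. Those starting at 125748756, 125749226 and 125764919 were common, and those starting at 125755545, 125758572 and 125766703 were STAT3β-only. The region at 20401600 to 20417559 on chromosome 7 showed the opposite pattern, with all 6 of its sites in the STAT3α list. Its common sites started at 20401600, 20402704 and 20412132, and its STAT3α-only sites at 20408004, 20409430 and 20417160. The site at its edge, 20401600 to 20401999, was the only one of the 6 listed at 180 min, and it was so for both spliceforms.

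The remaining 4 dense regions lay on chromosomes 4, 5, 10 and 15. On chromosome 15, between 76020237 and 76038042, 3 common sites lay among 1 STAT3α-only and 2 STAT3β-only sites, and the common site at 76028958 to 76029357 was also in the STAT3β 180 min list. On chromosome 4, between 124791945 and 124809141, 4 of 5 sites were common and the middle site, at 124800076 to 124800475, was STAT3α-only. On chromosome 5, between 91179425 and 91193504, the first 3 sites were STAT3β-only and the last 2 common. On chromosome 10, between 79604077 and 79621584, the STAT3α-only site at 79604077 was followed by common sites at 79613888 and 79621185, with STAT3β-only sites at 79614894 and 79615631 between these. In each of these 4 regions both lists thus had peaks, with 2 to 5 in the STAT3α list and 4 or 5 in the STAT3β list.

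Joining sites within 50 kb brought out 9 larger regions of 9 to 14 sites. The largest, at 35857387 to 36047140 on chromosome 17, spanned 190 kb and held 14 sites. Its 4 STAT3α-only sites lay between 35886720 and 35914079, and 6 of its 8 common sites followed one another between 35939995 and 36003956. None of the 14 was listed at 180 min. The most compact was the region at 117784693 to 117856935 on chromosome 11, with 12 sites in 72.2 kb. In its first part, up to 117811362, 3 STAT3α-only sites and 1 STAT3β-only site surrounded 1 common site. From 117823497 on, all 7 sites were common. Of these, the site at 117830560 to 117830959 was in both 180 min lists and the one at 117824769 to 117825168 in the STAT3β 180 min list. The region at 167514087 to 167692667 on chromosome 2 was alike in that respect. Of its 7 common sites, 6 followed one another from 167586158 to 167649221, single-list sites lay at both ends, and the common site at 167602937 to 167603336 was in both 180 min lists.

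The other large regions differed in how far the spliceforms shared them. At 51665693 to 51817970 on chromosome 11, 8 of 10 sites were common and the other 2 were STAT3α-only. At 70472536 to 70640702 on chromosome 12, 7 of 11 sites were common and the other 4 STAT3α-only, so it held no STAT3β-only site. At 91110969 to 91193504 on chromosome 5, 8 of 9 sites were in the STAT3β list, 4 of 9 in the STAT3α list and 3 in both. Common sites were in the minority in the chromosome 17 region from 84353831 to 84512157, which had 4 sites of each class. They were so too in the chromosome 5 region from 107516432 to 107648768, with 3 common, 3 STAT3α-only and 4 STAT3β-only sites. The last region, at 79481503 to 79621584 on chromosome 10, contains the dense region named above. It held 6 common, 2 STAT3α-only and 4 STAT3β-only sites. Its common site at 79538039 to 79538438 was in the STAT3β 180 min list.

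**Figure D2:**
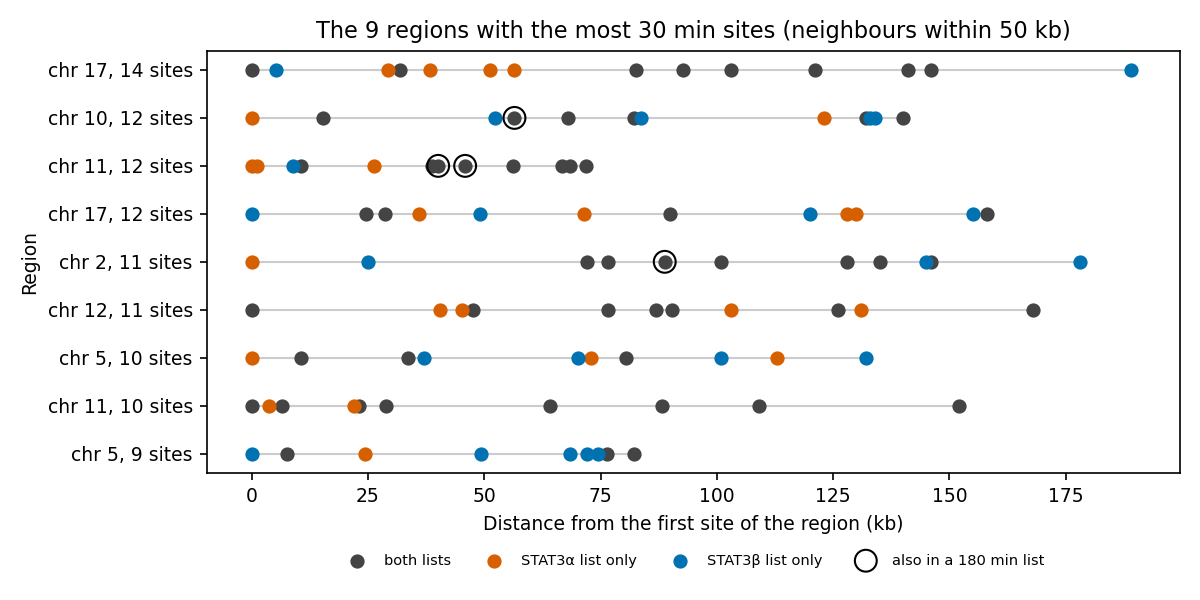
Sites (points) of the 9 regions with at least 9 sites at 30 min, each plotted at the distance of its midpoint from that of the first site of the region (x axis, kb), with a row per region and colour for list membership. Rings mark the 4 sites also listed at 180 min, all of which were in both 30 min lists.

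Sites in larger regions were more often common. In regions joined within 50 kb, 41.0% of the 2590 sites that stood alone were common (interval 39.1 to 43.0%). The share was 41.4% in regions of 2 sites, 44.3% (41.0 to 47.5%) in regions of 3 or 4, 51.1% (46.1 to 56.2%) in regions of 5 to 7 and 53.5% (43.3 to 63.5%) in those of 9 to 14. The last interval is wide, since those regions hold 101 sites. The STAT3β-only share had the opposite order. It was 33.8% of the lone sites and 23.8% in regions of 5 to 7 and 22.8% in those of 9 to 14. The STAT3α-only share lay between 23.8% and 30.1% at all sizes. The share of sites in either 180 min list did not rise steadily with size. It was 2.63% among lone sites, 1.81% in regions of 2, 2.27% in regions of 3 or 4, 2.78% in regions of 5 to 7 and 3.96% (4 sites) in the largest regions.

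**Figure D3:**
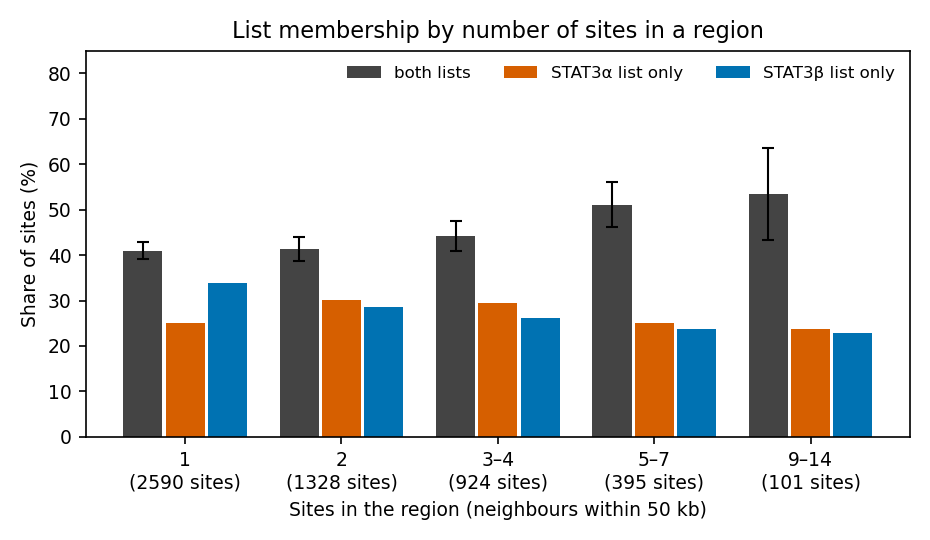
Share of sites in both lists, in the STAT3α list only and in the STAT3β list only (y axis, %) by the number of sites in the region (x axis, sites joined within 50 kb). Error bars on the common share are 95% exact binomial intervals over sites, and the common share rises from 41.0% to 53.5% while the STAT3β-only share goes from 33.8% to 22.8%.

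STAT3β-only sites lay farther from common sites than STAT3α-only sites did. The median distance to the nearest common site was 129 kb for STAT3α-only sites and 173 kb for STAT3β-only sites, against 119 kb from a common site to the next. A common site lay within 50 kb of 462 of 1447 STAT3α-only sites (31.9%, interval 29.5 to 34.4%) and of 395 of 1613 STAT3β-only sites (24.5%, 22.4 to 26.7%). For common sites the share was 32.9% (31.0 to 34.9%). At 10 kb the intervals overlapped, with 10.4% of STAT3α-only sites (8.91 to 12.1%) and 10.2% of STAT3β-only sites (8.79 to 11.8%). Counting sites of any class, 55.0% of STAT3α-only sites (52.4 to 57.6%) but 45.7% of STAT3β-only sites (43.2 to 48.2%) had a neighbour within 50 kb. Within chromosomes the order was the same on 18 of 20, for common neighbours and for any neighbour. Chromosome 3 and the X chromosome were the exceptions. On chromosome 7 a common site was within 50 kb of 32.9% of STAT3α-only and 10.6% of STAT3β-only sites, and on chromosome 3 of 25.8% and 26.1%. With 1 library per spliceform these values describe 2 lists and not a difference between cultures.

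**Figure D4:**
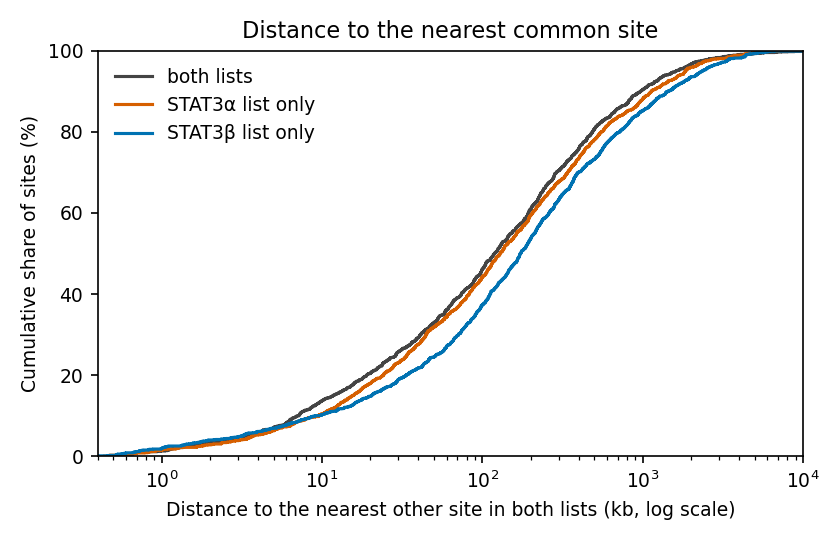
Cumulative share of sites (y axis, %) against the distance to the nearest other site present in both lists (x axis, kb, log scale), by list membership. The STAT3α-only curve runs close to that of the common sites (medians 129 and 119 kb) and the STAT3β-only curve lies to the right from about 10 kb on (median 173 kb).

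Single-list sites could lie almost side by side with a site of the other list. The closest 2 sites in the comparison, at 42717134 to 42717533 (STAT3β-only) and 42717538 to 42717937 (common) on chromosome 17, were separated by 4 bp. On chromosome 11 a STAT3β-only site at 86570924 to 86571323 and a STAT3α-only site at 86571347 to 86571746 lay 23 bp apart. On chromosome 1 the STAT3α-only site at 138592604 to 138593003 and the STAT3β-only site at 138593057 to 138593456 were 53 bp apart. Such cases were few. Only 7 STAT3α-only sites (0.484%) and 7 STAT3β-only sites (0.434%) had a peak of the other list with its midpoint within 500 bp. For some of them that peak was a site already common, as in the chromosome 17 pair. Neighbouring sites with midpoints within 1 kb of each other made up 106 pairs. In 15 of them both sites were common, in 22 a common site lay beside a STAT3α-only site and in 32 beside a STAT3β-only site, and 37 joined single-list sites. Of those 37, 14 (37.8%, interval 22.5 to 55.2%) had a site of each spliceform. At 1 to 10 kb this held for 85 of 170 pairs (50.0%, 42.2 to 57.8%) and at 10 to 50 kb for 127 of 332 (38.3%, 33.0 to 43.7%). At 50 to 200 kb it was 41.3% (36.9 to 45.8%) and at 200 to 1000 kb 49.4% (45.1 to 53.8%). The genome-wide split of single-list sites, if it held everywhere, would give 49.9%, which the intervals at 10 to 50 kb and 50 to 200 kb do not reach. The STAT3α-only share of single-list sites ran from 29.5% on chromosome 10 to 68.1% on chromosome 9, however. The value that such uneven splits would give for neighbours was not computed, so no local separation of the spliceforms is read from this.

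The single-list sites were also followed along the chromosomes, in bins of 25 Mb, since their split between the spliceforms differed between chromosomes. STAT3α-only sites were 47.3% of all 3060 single-list sites. On chromosome 3 STAT3β-only sites were in the majority in each of 7 bins. On chromosome 10 they were so in each of 6, of which 3 held at least 20 single-list sites. Such counts say little alone, since STAT3β-only sites were also in the majority over the genome. They were so in each of 5 bins on chromosome 13 as well, and in 7 of 8 on chromosome 2, where the STAT3α-only share was 46.4%. In the first chromosome 3 bin the interval of that share, 18.1 to 61.6%, included 47.3%. On chromosome 19 STAT3α-only sites were in the majority in each of 3 bins, and on chromosome 9 in 4 of 5. Chromosome 6 was split. The STAT3α-only share was 21.4% in its first bin (3 of 14 sites, interval 4.66 to 50.8%) and 35.7% from 25 to 50 Mb (10 of 28 sites, 18.6 to 55.9%). It was 72.2% from 75 to 100 Mb (26 of 36 sites, 54.8 to 85.8%) and 76.9% from 125 to 150 Mb (20 of 26 sites, 56.4 to 91.0%). On chromosome 1 none of the 11 single-list sites in the first bin was STAT3α-only, which allows a share of up to 28.5%. Over the genome, 69 bins held at least 20 single-list sites. The interval lay above the genome-wide share in 9 of them and below it in 9. Those 18 became 14 of 66 when neighbouring sites of a class within 10 kb were counted once, and 5 of 57 when those within 100 kb were. Counting neighbours once also leaves fewer sites per bin, and the cause of the lower counts was not tested.

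**Figure D5:**
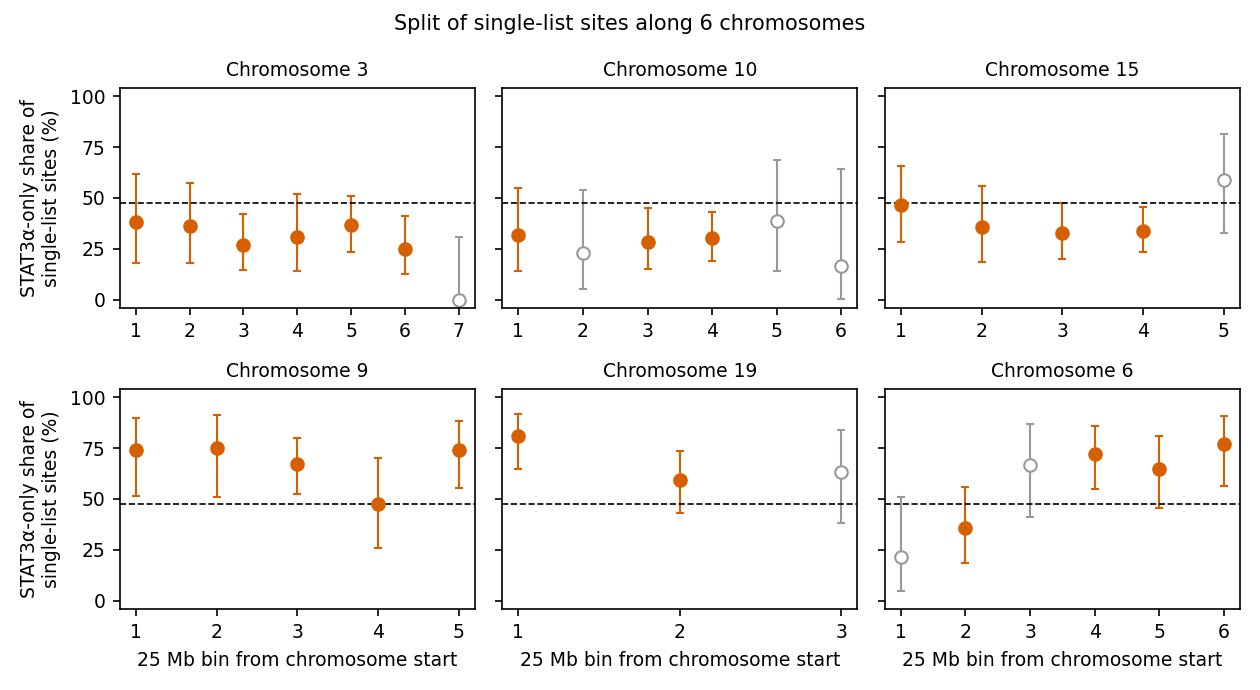
STAT3α-only share of the single-list sites (y axis, %) in successive 25 Mb bins from the chromosome start (x axis) for 6 chromosomes, with 95% exact binomial intervals. The dashed line is the genome-wide 47.3%, open grey points are bins of fewer than 20 single-list sites, and chromosome 6 passes from below the line to above it.

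The longest unbroken series of a class in genome order lay on chromosomes with an uneven split and on others. A series of 10 STAT3β-only sites ran from 60309033 to 64943040 on chromosome 3. Series of 9 from 156808117 to 158520227 on the X chromosome and of 7 from 137622211 to 140156528 on chromosome 2 followed, although the STAT3α-only share of single-list sites on those chromosomes, 48.4% and 46.4%, was near the genome-wide share. For STAT3α-only sites there were 8 from 10365055 to 21179356 and 7 from 7131941 to 9016963 on chromosome 19, and 7 from 114887509 to 117872279 on chromosome 9. Common sites formed a series of 10 from 140829176 to 148662470 on chromosome 7 and of 9 from 100449236 to 106520911 on chromosome 4. A series of 8 common sites filled only 0.236 Mb, from 167184090 to 167420460 on chromosome 2, at lower coordinates than the large chromosome 2 region described above. The longest series that the class shares alone would give were not computed, so no clustering of a class is read from these lengths.

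The lists of the other times, which the definition of common sites did not use, held few 30 min sites of any class and almost no single-list site. The 180 min lists held 40 peaks (STAT3α) and 120 peaks (STAT3β). Among these were 35 (1.54%) and 112 (4.92%) of the 2278 common sites. The 0 min lists held 7 (STAT3α) and 8 (STAT3β) exact positions. Over all 5338 sites, 37 (0.693%) were in the STAT3α 180 min list and 118 (2.21%) in the STAT3β 180 min list. No STAT3α-only site was in a 180 min list, which allows a share of up to 0.255% in each. None was at an exact position of a 0 min list either, but lists of 7 and 8 such positions could hold few sites of any class. Of the STAT3β-only sites, 6 were listed again for STAT3β at 180 min. Chromosome 4 carried 3 of them, at 107790959 to 107791358, 120240626 to 120241025 and 135695969 to 135696368. The others were a chromosome 5 site (77801989 to 77802388), a chromosome 8 site (86628601 to 86629000) and a chromosome 10 site (89207427 to 89207826). For these 6 sites the nearest other 30 min site was between 43.9 kb and 437 kb away. Such distances were frequent, since 2590 of the 5338 sites had no neighbour within 50 kb. For 2 other STAT3β-only sites it was the STAT3α 180 min list that held them. These were a chromosome 7 site (6362777 to 6363176) and a chromosome 8 site (14072529 to 14072928), and the latter was also in the STAT3α list at 0 min. These positions were thus listed in STAT3α cells at another time, although they count as STAT3β-only at 30 min. The lists do not hold the strength of a site, so whether common sites were stronger than single-list sites was not tested.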

How the data were processed

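Per the labels, phosphorylated STAT3 was precipitated from formaldehyde-fixed fibroblasts, duplicates were prepared and reads were merged, and 1 peak list per ChIP sample was deposited. Tools named in the submitters' processing notes are MACS2 2.1.1.20160309, HOMER 4.9, STAR 2.5.0a, Trim Galore 0.4.2 and bedtools, with mm9 as the build. The sources used here do not give what each tool did, how input DNA was used or where the peak threshold lay. The deposited lists give chromosome, start, end and name of each peak, and no score. Nearly all peaks were 400 bp wide, and peaks of different lists that overlapped had identical positions. How this came about is not stated. The peak threshold and the depth of a library could move sites between the classes. In the 0 min lists 6 positions are rounded to 3 digits and were left out.

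Groups came from the sample titles. Sites were classed by identical position, distances were taken between midpoints, and regions were chains of neighbours within 10 kb or 50 kb. The named regions are those with at least 5 sites (10 kb) or at least 9 sites (50 kb). This rule, the bins and the distances were chosen after the positions were seen. The planned counts of genes, start sites and motifs needed an mm9 annotation or genome and were not run. The members and lists were chosen with earlier results of these data known. Functions were tested on simulated sites. Python 3.11.15, numpy 2.4.6, scipy 1.17.1 and matplotlib 3.10.9 were used.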

Additional observations from a re-analysis of the deposited data

How the results depend on the processing

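The share of sites in both lists was 42.7%. It stayed within its interval with midpoints within 500 bp (42.9%) and with autosomes alone (42.7%). The 500 bp value counts 7 sites of each list as newly matched, although some lay beside a site that was already common. Matching by an overlap of 1 bp also gave 42.7%. That setting could give no other value, since overlapping peaks of different lists had identical positions. The 500 bp setting had little room to differ, since all peaks were at least 400 bp wide. Joining peaks into regions, which changes the unit counted, gave 45.6% at 5 kb, 46.8% at 10 kb and 53.3% at 50 kb, beyond that interval. The count of 25 Mb bins with an uneven split of single-list sites, 18 of 69, was 14 of 66 with 1 site of each class kept per chain of 10 kb, 5 of 57 at 100 kb and 0 of 2 at 1 Mb, where few bins kept 20 sites. The other results, on regions with peaks of each list, common sites within 50 kb and the common share in regions of at least 5 sites, stayed within their intervals under the alternatives run. Of 17 alternative values for 6 results, 12 stayed, among them the overlap setting that could not move, and 5 moved. Of 18 alternatives listed in advance 14 were not run, since the lists hold no score and no mm9 genome or annotation was used. All alternatives other than the overlap definitions, autosomes for the main share and the 10 kb joining were chosen after seeing the data. No paired analysis was possible because each group has 1 list. Depth is unknown, so its effect on list membership could not be measured.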
